A study of Rattus norvegicus with 9 samples.

Results

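Fibroblasts make and turn over the collagen-rich matrix of the bladder wall, and 9 genes that mark them at rest or when activated were followed here: Pdgfra, Cd34, Gsn, Pi16, Dpt, Fap, Thy1, Vim and S100a4. The members were all non-control probes whose accession maps to one of these rat genes. A probe was found for 8 of the 9 genes, and none was matched for Dpt (dermatopontin, a collagen-binding matrix protein). These 8 genes had 9 of the 30367 probes on the array, because Pi16 has 2. After the filters, 7 of them were among the 11047 genes tested, of 15168 named genes. S100a4 was left out of that fit by quality flags alone and is described below with its flagged spots kept.

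Bladder RNA of female rats was hybridised to 9 Agilent arrays in 1 colour, 3 arrays in each of 3 groups, all at 3 weeks. The arrays were titled pBOO with tolterodine (obstructed rats given a drug that blocks muscarinic acetylcholine receptors), pBOO (partial bladder outlet obstruction, the proximal urethra tied over a catheter) and sham operation (no tie). The series title concerns β-adrenoceptor signalling and matrix deposition by bladder muscle cells, and the arrays are its rat model. The animals' strain, age and the tolterodine dose are not given in the sources used here. Per the labels, 5 bladder specimens were examined in each group, and whether an array holds 1 animal or a pool is not stated, so the p-values measure the spread between these arrays. The treatment protocol assigns the letters S to obstruction and C to sham, while the arrays titled pBOO carry C codes and the arrays titled sham carry S codes. The titles were followed. Exchanging the names would turn the sign of every pBOO against sham value below and would swap the other comparisons.

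As background, resident fibroblasts of many organs carry the PDGF receptor alpha chain, and the ligands of the PDGF family drive their growth and movement. Pi16 marks fibroblasts around vessels in mouse and human tissues, and Cd34, a surface sialomucin, marks stromal fibroblasts as well as vessel lining. Fap, a membrane serine protease, and Thy1, a small surface glycoprotein, are used as signs of fibroblast activation, which in the bladder accompanies scarring of the wall. None of the genes is restricted to fibroblasts: Gsn and Vim are also made by muscle, vessel and immune cells, and S100a4 by macrophages.

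Levels are log2 signals relative to the 75th percentile of the array, so 0 is that percentile and levels of different genes are not compared. That percentile lay at 523 to 1441 intensity units, and 72.1% to 80.1% of an array's spots passed the well above background flag, while 4.66% to 6.31% carried a quality flag. All 9 member probes were well above background on 9 of 9 arrays. Arrays with the same scan time were taken to share a slide, and no slide label was used. This gave 3 slides: tolterodine 1 and 2 with sham 2 and 3 on slide 1, the 3 pBOO arrays with sham 1 on slide 2, and tolterodine 3 alone on slide 3. No slide held both tolterodine and pBOO arrays. Sham 1 stood apart from the other sham arrays for some genes, among them the fat cell hormone Adipoq (-5.08, against 2.06 and 1.64 on sham 2 and 3) and the mesothelial Wt1 (-5.46, against -2.30 and -2.74). Among the members it lay lower on the brighter Pi16 probe (0.42, against 1.51 and 1.33) and for Gsn (2.88, against 3.56 and 3.49). For Pdgfra it lay higher (0.71, against 0.34 and 0.44). Without sham 1 no call on the 7 tested members changed in any comparison. In whole bladder RNA, fewer cells of a type and less RNA per cell cannot be told apart.

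Against sham, the pBOO arrays had higher Cd34, Gsn and Pdgfra and lower Fap. With tolterodine, Fap and Thy1 were higher than in pBOO, while Gsn and Cd34 were lower. Against sham, the tolterodine arrays had higher Fap, Cd34, Pdgfra, Vim and Thy1 and lower Gsn. Calls are at an adjusted p under 0.05 in a limma fit across all genes. In pBOO against sham, 3 of the 7 tested members rose and 1 fell, where 20.8% of all tested genes rose and 21.7% fell (42.5% in either direction). In tolterodine against pBOO, 2 rose and 2 fell, where 26.0% of all genes rose and 15.3% fell (41.3%). In tolterodine against sham, 5 rose and 1 fell, where 17.8% of all genes rose and 6.58% fell (24.4%). The median log2 fold changes of the 7 members were 0.73, 0.14 and 0.72 in the order just given, and those of all genes -0.04, 0.11 and 0.09. The groups did not overlap for 6, 4 and 7 of the 7 members, against 55.7%, 58.7% and 43.1% of all genes. The comparisons share arrays: the pBOO arrays stand in the first and the second, so opposite signs there are not independent of each other.

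**Figure D1:**
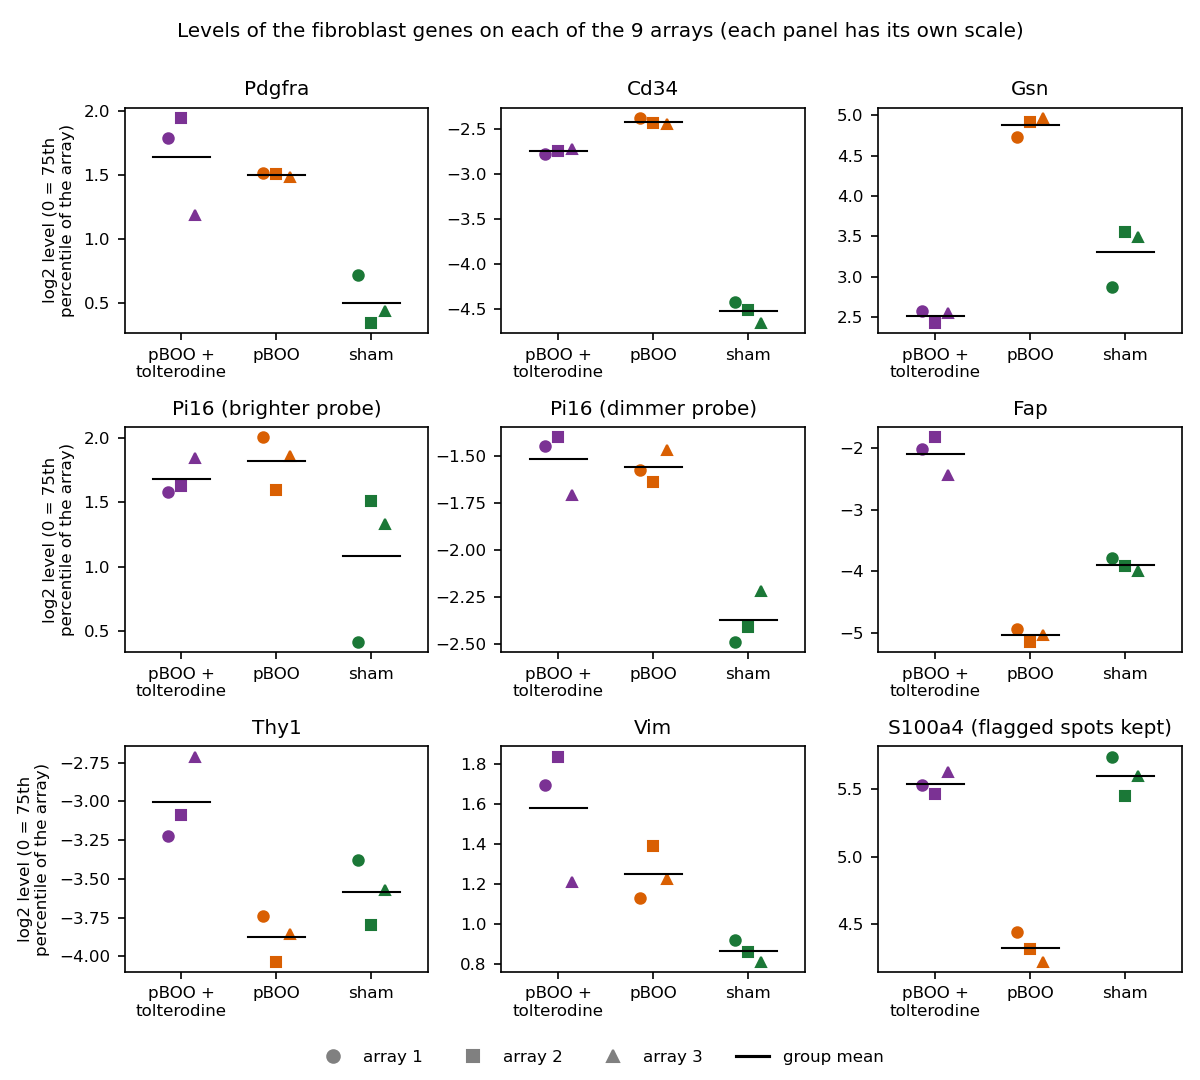
Each panel plots the log2 level of a fibroblast gene (0 is the 75th percentile of the array) on the 9 arrays, by group, with symbols for arrays 1 to 3 and a line at the group mean. The 3 pBOO arrays lie above the others for Gsn and Cd34 and below the others for Fap, and S100a4, drawn with flagged spots kept, is low only on the pBOO arrays.

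**Figure D2:**
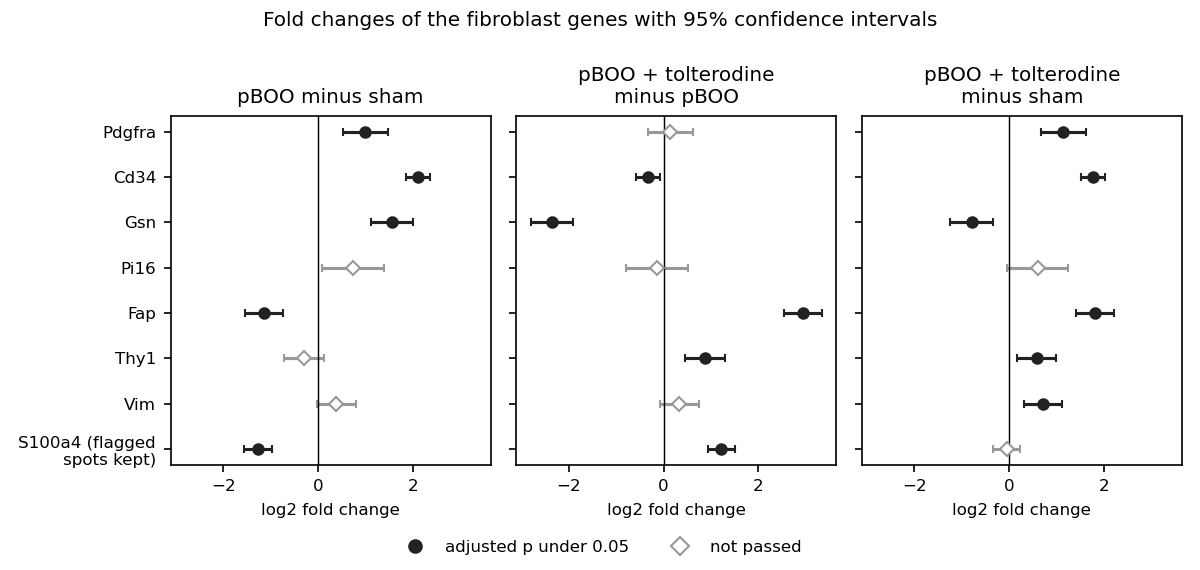
Points give the log2 fold change of each gene in the 3 comparisons and bars its 95% confidence interval from the limma fit. Filled points had an adjusted p under 0.05; Gsn lies at 1.56 in pBOO against sham and at -2.36 in tolterodine against pBOO, and Fap at -1.14 and 2.94.

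Cd34, Gsn, S100a4 and Fap had the largest differences between pBOO and sham among the measured genes, in both directions. The 250 bases upstream of their RefSeq gene start (assembly GRCr8) are printed so that the genes that rose and the genes that fell can be set side by side, each read 5′ to 3′ on the strand of the gene, with motif matches in capitals. Gsn lies at chr3:39008682-39008931 on the plus strand, Cd34 at chr13:109008536-109008785 on the plus strand, Fap at chr3:67616092-67616341 on the minus strand and S100a4 at chr2:178388279-178388528 on the plus strand.
Gsn: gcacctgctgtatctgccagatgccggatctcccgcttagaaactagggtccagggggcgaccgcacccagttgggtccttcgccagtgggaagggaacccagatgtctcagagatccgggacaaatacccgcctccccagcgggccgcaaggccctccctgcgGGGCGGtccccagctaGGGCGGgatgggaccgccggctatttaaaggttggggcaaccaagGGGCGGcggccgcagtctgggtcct
Cd34: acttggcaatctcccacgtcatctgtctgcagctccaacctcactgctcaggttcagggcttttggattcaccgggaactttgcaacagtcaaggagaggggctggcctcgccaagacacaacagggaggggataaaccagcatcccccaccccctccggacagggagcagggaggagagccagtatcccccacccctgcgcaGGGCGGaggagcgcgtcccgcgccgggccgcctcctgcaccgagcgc
Fap: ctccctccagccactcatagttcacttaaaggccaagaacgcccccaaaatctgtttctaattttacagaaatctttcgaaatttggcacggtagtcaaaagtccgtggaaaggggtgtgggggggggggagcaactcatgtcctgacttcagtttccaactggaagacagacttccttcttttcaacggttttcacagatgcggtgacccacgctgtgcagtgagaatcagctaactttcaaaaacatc
S100a4: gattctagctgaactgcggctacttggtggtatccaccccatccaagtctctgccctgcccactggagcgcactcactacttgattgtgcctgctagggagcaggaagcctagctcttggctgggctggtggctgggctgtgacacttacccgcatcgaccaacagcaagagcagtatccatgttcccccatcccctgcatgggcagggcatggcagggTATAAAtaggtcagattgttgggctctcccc
The capitals mark GGGCGG, the core of the GC box, in Gsn (3 matches) and Cd34 (1 match), and TATAAA in S100a4, 31 to 26 bases before the start. Fap held no match to any motif searched. The search covered the TATA box as TATAAA, the GC box as above, the site of the AP-1 factors as TGANTCA, the site of the TEAD factors as GGAATG and, by its name, the CArG box of serum response factor, on both strands. No 2 matches overlapped.

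RefSeq listed such a promoter for 8 of the 9 genes and none for Thy1. GGGCGG stood in 3 of the 8 (Gsn, Cd34 and, on the reverse strand, Vim), against 30.5% of 33469 rat promoters of that length. TATAAA also stood in 3 of the 8 (S100a4, Vim and Dpt), against 12.9%. TGANTCA was found in Pdgfra only, 35 to 29 bases before its start, against 6.34% of promoters, and GGAATG (12.1%) and the CArG box (1.50%) in none. The GC content was 66.4% for Gsn, 64.8% for Cd34, 57.6% for S100a4 and 47.2% for Fap, against a median of 51.2% over all promoters. Pdgfra, which also rose in pBOO against sham, had 47.2%, the same as Fap, and no GGGCGG. The matches are letters in a window and were not tied to binding in these data.

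Pdgfra, the receptor chain that defines most resident fibroblasts, was higher with obstruction whether or not tolterodine was given. Its level was 1.79, 1.94 and 1.19 on the tolterodine arrays, 1.52, 1.50 and 1.48 on the pBOO arrays, and 0.71, 0.34 and 0.44 on the sham arrays. All 6 arrays of obstructed rats lay above all 3 sham arrays, and tolterodine 3, the array on a slide of its own, was the lowest of the 6. The rise in pBOO against sham was 1.00 (SE 0.194; adjusted p = 0.00367), a fold of 2.00. Tolterodine against sham gave 1.14 (adjusted p = 0.00452). Tolterodine against pBOO gave 0.14 (95% interval -0.34 to 0.62; adjusted p = 0.591), and these groups overlapped. With slide as a fixed block that value became 0.69 (adjusted p = 0.0114), which rests on sham 1 as the link between slides, and it was 0.37 (adjusted p = 0.0637) without tolterodine 3.

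The Pdgfra probe is printed 10 times on each array, as is the Vim probe, which shows the error of reading a spot apart from the spread between arrays. Spots of the Pdgfra probe had an SD of 0.0416 to 0.0650 within an array, and those of the Vim probe 0.0304 to 0.0746. The SD of the 3 tolterodine arrays was 0.40 for Pdgfra and 0.33 for Vim, larger than the spot SD, and that of the 3 pBOO arrays was 0.0176 for Pdgfra and 0.13 for Vim. Tolterodine 3 lay below the other tolterodine arrays on both probes.

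**Figure D3:**
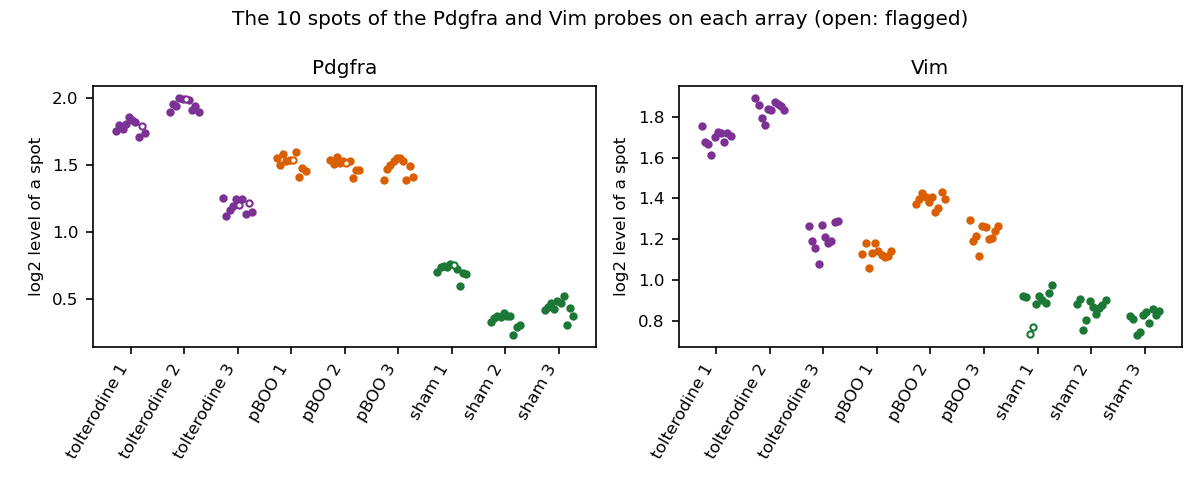
Every point is 1 of the 10 spots of the Pdgfra or Vim probe on an array, as a log2 level, and open points are spots with a quality flag (7 of 90 for Pdgfra and 2 of 90 for Vim). Spots of an array stay together, and tolterodine 3 lies below tolterodine 1 and 2 with all of its spots.

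The other genes of PDGF signalling moved partly with Pdgfra. Between pBOO and sham arrays 3 of 6 rose and 0 fell, with a median of 0.62: the beta receptor chain Pdgfrb by 1.40 (adjusted p = 0.000263), the ligand Pdgfc by 1.27 (adjusted p = 0.000758) and the ligand Pdgfa by 0.65 (adjusted p = 0.0103). Pdgfc was well above background on 2 of the 3 sham arrays. Between tolterodine and pBOO arrays, Pdgfrb fell by 0.69 (adjusted p = 0.00865) and Pdgfa fell by 0.66 (adjusted p = 0.0101). The ligand Pdgfb rose there by 0.57 (adjusted p = 0.00502), although it was well above background on only 2 of 3 pBOO arrays. Between tolterodine and sham arrays 4 of 6 rose, among them Pdgfrb by 0.71 (adjusted p = 0.0143), and 0 fell. Pdgfrb is also a gene of pericytes, the contractile cells around small vessels. Pericyte markers as a group had 5 higher and 1 lower of 8 in pBOO against sham, and 1 higher and 4 lower in tolterodine against pBOO. Pdgfrb itself is counted among those 5 and those 4.

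Cd34 had the smallest adjusted p among the members in pBOO against sham. Its level was -2.78, -2.74 and -2.72 on the tolterodine arrays, -2.37, -2.43 and -2.44 on the pBOO arrays, and -4.41, -4.50 and -4.65 on the sham arrays. No groups overlapped, and the sham arrays lay far below the rest. The rise in pBOO against sham was 2.11 (SE 0.102; adjusted p = 5.07e-06), a fold of 4.30, and in tolterodine against sham 1.78 (adjusted p = 7.64e-05). Cd34 was a dim probe on the sham arrays, at 23.4 to 36.2 intensity units, and with the normexp background correction these rises were 0.97 (adjusted p = 0.000447) and 0.77 (adjusted p = 0.0063). The fall in tolterodine against pBOO was small, 0.33 lower on the log2 scale (-0.33; SE 0.102; adjusted p = 0.0300). It did not pass with normexp (-0.21; adjusted p = 0.266), with slide as a fixed block (-0.18; adjusted p = 0.337) or when tolterodine 1, tolterodine 2 or any single pBOO array was left out (adjusted p from 0.0607 to 0.0991).

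Cd34 is also made by the cells that line vessels, so endothelial markers are given beside it. Between pBOO and sham arrays 5 of 11 rose and 0 fell, with a median of 0.30: the tight junction protein Cldn5 by 2.20 (adjusted p = 9.54e-06), the adhesion molecule Esam by 1.42 (adjusted p = 0.00011) and Pecam1 by 1.41 (adjusted p = 0.00262). On tolterodine arrays against pBOO 2 of 11 rose and 4 fell, with Cldn5 at -0.97 (adjusted p = 0.000363) and Pecam1 at -0.39 (adjusted p = 0.257). Where tolterodine was set against sham, 5 rose and 0 fell. Their mean level was -2.29 to -2.20 on the tolterodine arrays, -2.11 to -1.87 on the pBOO arrays and -2.80 to -2.57 on the sham arrays. The endothelial part in the Cd34 result was not tested.

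Gsn, the actin-severing protein gelsolin, was highest on the pBOO arrays and lowest with tolterodine. Its level was 2.57, 2.43 and 2.55 on the tolterodine arrays, 4.73, 4.92 and 4.97 on the pBOO arrays, and 2.88, 3.56 and 3.49 on the sham arrays. The 3 groups did not overlap. In pBOO against sham Gsn rose by 1.56 (SE 0.181; adjusted p = 0.000281), a fold of 2.96. In tolterodine against pBOO it fell by 2.36 (SE 0.181; adjusted p = 2.77e-05), a fold of 5.13. In tolterodine against sham it fell by 0.80 (adjusted p = 0.0148), and this call was lost without tolterodine 2, sham 2 or sham 3, with adjusted p from 0.0522 to 0.0618.

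Gsn is abundant in smooth muscle, and most of the tested muscle markers moved the same way on the pBOO arrays. Their mean level over 11 genes was 3.31 to 3.63 on the tolterodine arrays, 4.36 to 4.61 on the pBOO arrays and 3.00 to 3.26 on the sham arrays, with flagged spots kept. Between pBOO and sham arrays 7 of 8 tested markers rose and 0 fell, with the myosin light chain kinase Mylk at 2.77 (adjusted p = 2.19e-06) and the myosin heavy chain Myh11 at 2.59 (adjusted p = 0.000933). Between tolterodine and pBOO arrays 7 of 8 fell and 0 rose, with Mylk at -1.86 (adjusted p = 7.78e-06) and Myh11 at -2.57 (adjusted p = 0.00101). Between tolterodine and sham arrays 3 rose and 0 fell, Myh11 stood at 0.03 (adjusted p = 0.970) and Gsn at -0.80. With flagged spots kept, 11 were tested. Of these, 8 rose and 0 fell in pBOO against sham, with a median of 1.34. In tolterodine against pBOO 0 rose and 8 fell, and in tolterodine against sham 2 rose and 0 fell. Tested only there in pBOO against sham were Tagln at 0.77 (adjusted p = 0.00890), Des at 0.24 (adjusted p = 0.361) and Actg2 at -0.44 (adjusted p = 0.131). With flagged spots kept, a brighter probe stood for Mylk and for Myh11, with smaller differences of pBOO from both other groups. On the tolterodine arrays Mylk was then at 4.70, 4.65 and 4.96, on pBOO at 6.10, 5.88 and 6.24 and on sham at 4.04, 4.70 and 4.59. Myh11 was at 4.39, 4.40 and 4.40, at 6.03, 6.15 and 6.27 and at 3.38, 4.94 and 4.79 in the same order. The muscle part in the Gsn result was not tested.

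Other genes of the gelsolin family also encode actin-binding proteins. Of 5 tested, 1 rose and 3 fell in pBOO against sham. Capg, an actin-capping protein of macrophages, fell by 1.17 (adjusted p = 0.00320) and scinderin, Scin, fell by 1.00 (adjusted p = 0.0143). On tolterodine arrays against pBOO 2 rose and 0 fell, among them Capg by 0.94 (adjusted p = 0.00789). Where tolterodine was set against sham, 1 rose and 1 fell.

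Pi16, a secreted peptidase inhibitor that marks fibroblasts around vessels, had 2 probes that gave different calls. The brighter probe stood at 1.58, 1.63 and 1.84 on the tolterodine arrays, 2.01, 1.60 and 1.86 on the pBOO arrays, and 0.42, 1.51 and 1.33 on the sham arrays. Sham 1 lay about 1 log2 unit under the other sham arrays, and the difference of pBOO from sham was 0.73 (SE 0.264; adjusted p = 0.0510), short of the threshold. It was 0.40 (adjusted p = 0.0631) without sham 1. The dimmer probe stood at -1.44, -1.40 and -1.71 on the tolterodine arrays, -1.57, -1.63 and -1.47 on the pBOO arrays, and -2.49, -2.41 and -2.22 on the sham arrays. Its sham arrays were close together and below all others. Tolterodine against sham gave 0.60 (adjusted p = 0.131) for the brighter probe. When the dimmer probe was tested on its own, a choice made after the data were seen, it rose by 0.82 (SE 0.129; adjusted p = 0.00131) in pBOO against sham and by 0.86 (adjusted p = 0.00272) in tolterodine against sham. Tolterodine and pBOO overlapped on both probes, at -0.14 (adjusted p = 0.704) for the brighter and 0.04 (adjusted p = 0.818) for the dimmer. With slide as a fixed block the brighter probe gave 1.40 in pBOO against sham (adjusted p = 0.00131) and -1.22 in tolterodine against pBOO (adjusted p = 0.00758), values that rest on sham 1.

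Other fibroblast genes gave the frame for these identity genes. Of 22 listed, 18 were tested, Pdgfrb among them. Between pBOO and sham arrays 8 rose and 2 fell, with a median of 0.68: the collagen receptor Ddr2 rose by 2.58 (adjusted p = 2.30e-06), the matrix protein Fbln1 rose by 2.33 (adjusted p = 3.79e-05), and Penk, the enkephalin precursor, fell by 1.68 (adjusted p = 0.000327). In tolterodine against pBOO 4 rose and 5 fell, with a median of 0.03. Ddr2 fell there by 1.44 (adjusted p = 2.33e-05), while Penk rose by 1.82 (adjusted p = 0.000189) and the growth factor Igf1 rose by 1.51 (adjusted p = 0.000189). In tolterodine against sham 9 rose and 0 fell, with a median of 0.72. The smallest adjusted p there were those of Ddr2 at 1.14 (adjusted p = 0.00039) and the microfibril protein Mfap4 at 1.41 (adjusted p = 0.00055). Their mean level over 19 genes was 0.62 to 0.71 on the tolterodine arrays, 0.48 to 0.66 on the pBOO arrays and -0.07 to 0.06 on the sham arrays.

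**Figure D4:**
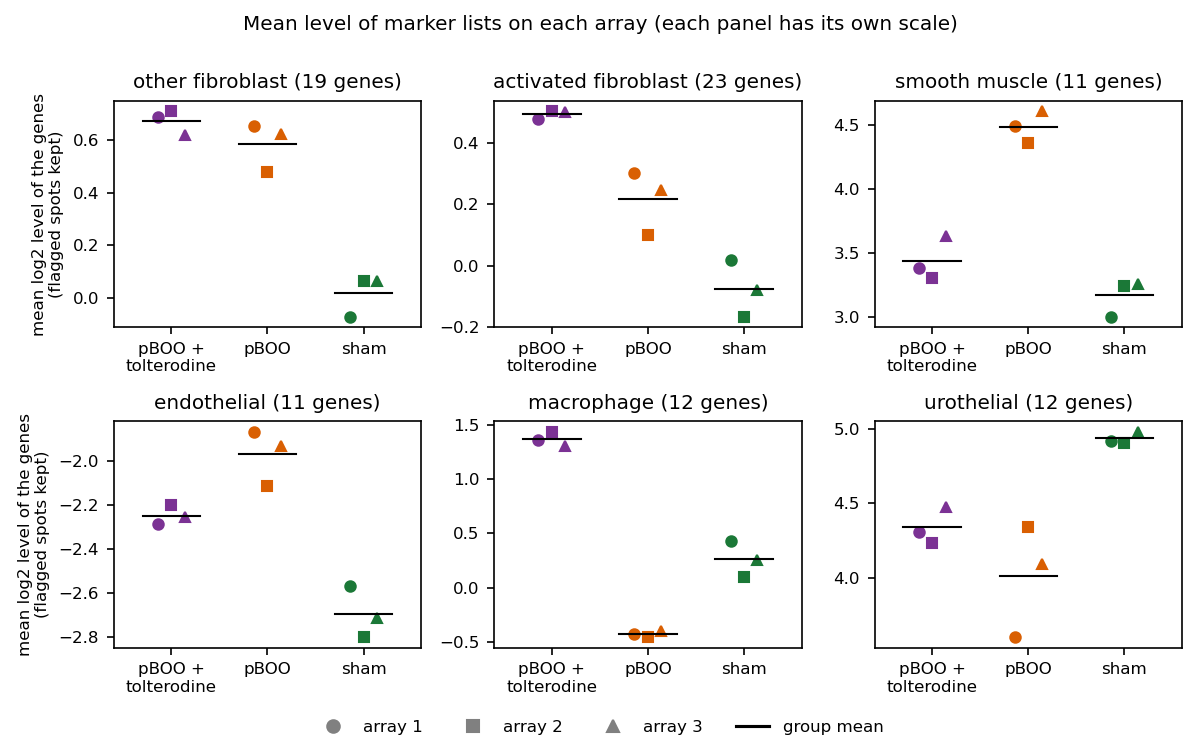
Each panel plots the mean log2 level of a marker list on the 9 arrays, with flagged spots kept, by group, with symbols for arrays 1 to 3 and a line at the group mean. The other fibroblast genes are lowest in sham, smooth muscle is highest in pBOO at 4.36 to 4.61, and macrophage genes run from -0.46 to -0.40 in pBOO and from 1.30 to 1.44 with tolterodine.

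Fap, the protease of activated fibroblasts, had the opposite pattern to Gsn. Its level was -2.02, -1.83 and -2.44 on the tolterodine arrays, -4.93, -5.15 and -5.03 on the pBOO arrays, and -3.79, -3.92 and -3.99 on the sham arrays. The 3 groups were fully apart, with tolterodine highest and pBOO lowest. Between tolterodine and pBOO arrays Fap rose by 2.94 (SE 0.161; adjusted p = 5.36e-06), a fold of 7.69. Against sham it rose by 1.81 with tolterodine (adjusted p = 0.000350) and fell by 1.14 in pBOO (SE 0.161; adjusted p = 0.000750), a fold of 2.20.

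The Fap probe was dim, and its signals before scaling were 96.6 to 303 intensity units on the tolterodine arrays, 29.0 to 47.2 on the pBOO arrays and 36.9 to 54.5 on the sham arrays. The pBOO and sham ranges overlapped before each array was divided by its own 75th percentile. The lowest level called well above background on the pBOO arrays lay between -6.17 and -5.84, so Fap stood about 1 log2 unit above it there. With normexp the 3 changes had the same direction and passed, at 1.69 (adjusted p = 9.44e-05) in tolterodine against pBOO, 1.04 (adjusted p = 0.00713) in tolterodine against sham and -0.65 (adjusted p = 0.0233) in pBOO against sham. Within slide 2 the 3 pBOO arrays differed from sham 1, a single array, by -1.25, and no test is given for that value.

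Of the proteases related to Fap, 4 were tested. Dpp4, its nearest relative, stood at 1.03 in pBOO against sham (adjusted p = 0.184) and at 0.17 in tolterodine against pBOO (adjusted p = 0.830), and was well above background on 2 of the 3 sham arrays. Dpp4 lay at -5.33 on sham 1, against -2.62 and -2.99 on sham 2 and 3. The prolyl peptidase Prep fell by 0.55 in pBOO against sham (adjusted p = 0.0270) and rose by 0.60 in tolterodine against pBOO (adjusted p = 0.0182). Its homologue Prepl rose by 0.65 (adjusted p = 0.0484) and fell by 1.24 (adjusted p = 0.00309) in the same comparisons. Between tolterodine and sham arrays none of the 4 passed the limma test, and the smallest adjusted p was that of Prepl (-0.59; adjusted p = 0.0942).

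Thy1, a surface glycoprotein of fibroblasts that neurons and some T cells also carry, was higher with tolterodine. Its level was -3.22, -3.09 and -2.71 on the tolterodine arrays, -3.74, -4.03 and -3.85 on the pBOO arrays, and -3.38, -3.80 and -3.57 on the sham arrays. The tolterodine arrays lay above all others, and pBOO and sham overlapped. Its probe was dim, at 79.9 to 127 intensity units on the tolterodine arrays, 63.0 to 108 on pBOO and 49.3 to 72.6 on sham. The tolterodine and pBOO ranges overlapped before scaling. Thy1 rose by 0.87 in tolterodine against pBOO (SE 0.169; adjusted p = 0.00383), a fold of 1.83. Over 11 alternative processing settings that value ran from 0.60 to 1.03, and all 11 kept the call. Tolterodine against sham gave a rise of 0.58 (adjusted p = 0.0377). That call was lost with array median scaling (0.44; adjusted p = 0.107), quantile normalization (0.31; adjusted p = 0.256) and normexp (0.27; adjusted p = 0.456), with no filter on dim probes (adjusted p = 0.0596), with the arrays of that comparison alone (adjusted p = 0.0700), and without tolterodine 2, tolterodine 3, pBOO 3, sham 2 or sham 3. In pBOO against sham it stood at -0.29 (95% interval -0.71 to 0.13; adjusted p = 0.195). T cell genes moved beside it in tolterodine against pBOO, where Cd3d rose by 1.13 (adjusted p = 6.22e-05) and 3 of 7 lymphocyte genes rose, and their part in the Thy1 result was not tested.

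Vim, the intermediate filament of mesenchymal cells, was higher with tolterodine than in sham. Its level was 1.70, 1.84 and 1.21 on the tolterodine arrays, 1.13, 1.39 and 1.23 on the pBOO arrays, and 0.92, 0.86 and 0.81 on the sham arrays. All 6 obstructed arrays were above the 3 sham arrays. Tolterodine against sham gave a rise of 0.72 (adjusted p = 0.0156), which did not pass without tolterodine 1, tolterodine 2 or sham 3 (adjusted p from 0.0578 to 0.0605). Between pBOO and sham arrays the difference was 0.39 (SE 0.165; adjusted p = 0.0896), and in tolterodine against pBOO 0.33 (adjusted p = 0.138). Without tolterodine 3 these became 0.39 (adjusted p = 0.0187) and 0.52 (adjusted p = 0.0117).

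Of 8 listed genes whose products join or bind such filaments, 5 were tested, while Des and Flna were left out by quality flags and Gfap as dim. Between pBOO and sham arrays 2 of 5 rose and 1 fell, with the muscle filament protein Synm at 2.33 (adjusted p = 3.65e-05) and the nuclear lamin Lmnb1 at -1.28 (adjusted p = 0.00618). On tolterodine arrays against pBOO 0 rose and 2 fell, Synm at -1.67 (adjusted p = 0.000165) and nestin, Nes, at -0.77 (adjusted p = 0.00437). Where tolterodine was set against sham, 1 rose and 2 fell. With flagged spots kept, 7 of the genes were tested, and 3 rose and 1 fell in pBOO against sham, Flna among those that rose (2.39; adjusted p = 4.17e-06, a gene chosen after its values were seen), while 0 rose and 3 fell in tolterodine against pBOO.

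S100a4, a calcium-binding protein of motile fibroblasts and of macrophages, had its spot flagged on 6 of 9 arrays. Each flag concerned only the local background, which was 22 to 29 intensity units beside a spot signal of 17674 to 47611. With flagged spots kept its level was 5.54, 5.47 and 5.63 on the tolterodine arrays, 4.44, 4.32 and 4.22 on the pBOO arrays, and 5.74, 5.45 and 5.60 on the sham arrays. The pBOO arrays lay more than 1 log2 unit below all others, and tolterodine and sham overlapped. S100a4 fell by 1.27 in pBOO against sham (SE 0.118; adjusted p = 9.44e-05), and it was 1.22 higher in tolterodine against pBOO (adjusted p = 9.33e-05), in a fit of 11636 genes with flagged spots kept. Tolterodine against sham gave -0.06 (adjusted p = 0.764). With quantile normalization the fall in pBOO against sham was 0.72 on the log2 scale (-0.72; adjusted p = 0.00551).

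In that fit of flagged and unflagged spots, 8 members were tested. For pBOO against sham 3 rose and 2 fell, where 20.5% of all genes rose and 22.9% fell (43.4% in either direction). For tolterodine against pBOO 3 rose and 2 fell, where 26.6% rose and 15.3% fell (41.9%). For tolterodine against sham 5 rose and 1 fell, where 17.5% rose and 6.54% fell (24.1%). Groups without overlap made up 55.6%, 58.2% and 42.1% of all genes in these comparisons.

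Other S100 genes, with the S100 partners Myh9 and Anxa2, were counted beside S100a4, first without flagged spots. Of 11 tested, Myh9 among them, 6 fell and 0 rose in pBOO against sham, and 5 rose and 1 fell in tolterodine against pBOO. With flagged spots kept, 14 were tested, of which 8 fell and 0 rose in pBOO against sham and 9 rose and 1 fell in tolterodine against pBOO. Anxa2, tested only there, is in both counts, at -0.81 (adjusted p = 0.00104) and 0.96 (adjusted p = 0.000429). S100a8 and S100a9, the calprotectin subunits of neutrophils and monocytes, fell by 3.00 (adjusted p = 9.54e-06) and by 3.52 (adjusted p = 9.23e-06) in pBOO against sham. In tolterodine against pBOO they rose by 4.06 (adjusted p = 1.54e-06) and 4.58 (adjusted p = 1.67e-06). In tolterodine against sham 2 of 11 rose, S100a8 by 1.07 (adjusted p = 0.00297) and S100a9 by 1.06 (adjusted p = 0.00567), and 1 fell.

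The macrophage markers that passed moved in the direction of Fap in all 3 comparisons. In pBOO against sham 4 of the 12 listed did not pass, and some of these stood above 0. Of 12 tested, 0 rose and 8 fell in pBOO against sham, with a median of -0.78: the signalling adaptor Tyrobp fell by 1.47 (adjusted p = 0.000142) and the lysosomal Cd68 by 0.79 (adjusted p = 0.00937), while Ptprc, the leukocyte antigen CD45, stood at -0.33 (adjusted p = 0.200). Between tolterodine and pBOO arrays 11 rose and 0 fell, with a median of 1.93: the scavenger receptor Cd163 by 2.45 (adjusted p = 1.27e-05), Cd68 by 1.64 (adjusted p = 0.000232) and Ptprc by 1.14 (adjusted p = 0.00193). Between tolterodine and sham arrays 11 rose and 0 fell, and Fap rose by 1.81 while S100a4 stood at -0.06. Their mean level over 12 genes was 1.30 to 1.44 on the tolterodine arrays, -0.46 to -0.40 on the pBOO arrays and 0.10 to 0.43 on the sham arrays. The macrophage part in the Fap, Thy1, Vim and S100a4 results was not tested.

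Genes of activated and matrix-making fibroblasts gave a mixed picture in pBOO. Of 19 tested of 27, 7 rose and 5 fell in pBOO against sham, with a median of 0.30. The matricellular protein Postn rose by 1.17 (adjusted p = 0.00312), the cadherins Cdh11 and Cdh2 by 1.16 (adjusted p = 0.000339) and 2.50 (adjusted p = 0.000895), while Ccn2, a growth factor target gene, fell by 1.57 (adjusted p = 0.00112). Cdh2 was well above background on 2 of the 3 sham arrays. Collagen Col1a1 stood at 0.11 (adjusted p = 0.509) and actin Acta2, which marks both myofibroblasts and muscle, at 0.30 (adjusted p = 0.242).

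On tolterodine arrays against pBOO 6 of the 19 rose and 2 fell, with a median of 0.38: Cthrc1, a secreted collagen-regulating protein, rose by 1.89 (adjusted p = 1.28e-05), Ccn2 by 2.10 (adjusted p = 0.000233), fibronectin Fn1 by 1.35 (adjusted p = 0.000572) and Col1a1 by 0.56 (adjusted p = 0.0172), and Cdh2 fell by 1.92 (adjusted p = 0.00353). Where tolterodine was set against sham, 10 rose and 1 fell, with a median of 0.67, among them Fn1 at 2.21 (adjusted p = 0.000244), Cdh11 at 1.54 (adjusted p = 0.000367), Postn at 1.03 (adjusted p = 0.0115) and Col1a1 at 0.67 (adjusted p = 0.0147). Postn stood at -0.14 (adjusted p = 0.635) and Acta2 at -0.16 (adjusted p = 0.535) in tolterodine against pBOO. With flagged spots kept, a brighter probe stood for Fn1, and its rises with tolterodine were smaller. It was at 4.54, 4.56 and 4.55 on tolterodine, 4.02, 3.13 and 3.64 on pBOO and 3.16, 3.09 and 3.08 on sham arrays.

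The lining epithelium changed as well. Of 8 tested urothelial genes, 0 rose and 5 fell in pBOO against sham, 4 rose and 0 fell in tolterodine against pBOO, and 1 rose and 3 fell in tolterodine against sham. With flagged spots kept, 12 were tested and the counts differed: 0 rose and 7 fell in pBOO against sham, 4 rose and 3 fell in tolterodine against pBOO, and 0 rose and 4 fell in tolterodine against sham. The basal keratin Krt14 fell by 1.86 in pBOO against sham (adjusted p = 0.000240) and rose by 2.60 in tolterodine against pBOO (adjusted p = 5.12e-05). The uroplakin Upk2, measured only with flagged spots kept, stood at -0.11 (adjusted p = 0.768) in pBOO against sham and fell by 1.00 (adjusted p = 0.0158) in tolterodine against pBOO. Of 6 nerve and Schwann cell genes tested, 2 rose and 2 fell in pBOO against sham, and 1 rose and 2 fell in tolterodine against pBOO. The nerve part in the Thy1 result was not tested. In tolterodine against pBOO, 0 of 2 mesothelial and 0 of 2 adipocyte genes passed. With flagged spots kept, 2 of 4 mesothelial genes and 1 of 3 adipocyte genes rose in that comparison, and 0 fell. In pBOO against sham both tested adipocyte genes fell, with Pparg at -0.63 (adjusted p = 0.0145) and Adipoq at -6.02 (adjusted p = 0.0251), although just 1 pBOO array had Adipoq well above background and its sham arrays were far apart.

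Slides were examined because each holds arrays of more than 1 group, except slide 3. Within slide 2, where 3 pBOO arrays stand against sham 1 alone, the difference was 0.79 for Pdgfra, 2.00 for Cd34 and 2.00 for Gsn, given without a test because the sham side has no replicate. Within slide 1, where tolterodine 1 and 2 stand against sham 2 and 3, tolterodine against sham gave 1.47 for Pdgfra, 1.82 for Cd34, -1.03 for Gsn, 2.03 for Fap, 0.53 for Thy1 and 0.93 for Vim, all with an adjusted p between 0.00167 and 0.0186. Slide as a fixed block returned the same values. Tolterodine against pBOO has no within-slide value. With slide as a random block it gave -2.76 for Gsn (adjusted p = 2.56e-05), 3.09 for Fap (adjusted p = 1.27e-05), 1.02 for Thy1 (adjusted p = 0.00293) and -0.23 for Cd34 (adjusted p = 0.152).

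**Figure D5:**
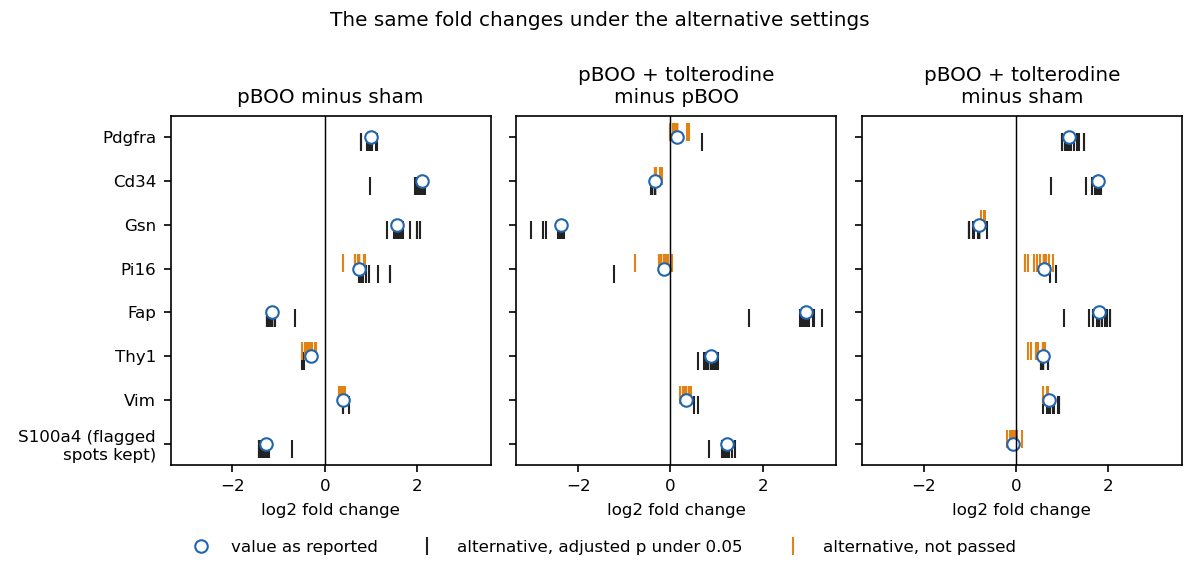
Circles give the reported log2 fold change and ticks the value under each alternative setting, black where the adjusted p was under 0.05 and orange where it was not. No tick of a called gene crosses 0, and the ticks nearest to 0 for Cd34 in pBOO against sham (0.97) and for Fap (-0.65) come from normexp.

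The genes with the most similar profile were found by the root mean square difference of centred log2 levels over the 9 arrays, among 10104 genes with a value on every array. For Fap they were Pla2g2d, a secreted phospholipase, at 0.177, Cd163 at 0.219 and the alcohol dehydrogenase Adh7 at 0.232. For Gsn they were the chaperone Hspa2 at 0.150, Whrn at 0.151 and the transcription factor Zeb2 at 0.166. For Cd34 they were the kinase Nek7 at 0.129, Sh3bgrl1 at 0.151 and Eeig2 at 0.160. Cd163 is a member of the macrophage list above, and what its closeness to Fap reflects was not tested. The distance is not scaled, so a gene that moved much less than Fap (SD 1.30 over the 9 arrays) could not come close to it.

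For the members that moved less, the distances were smaller. Those of Pdgfra were Prickle1 at 0.113, Apaf1 at 0.128 and Mat2a at 0.128, and those of the brighter Pi16 probe Eddm3b at 0.0820, S100b at 0.140 and Cd302 at 0.146. Thy1 was closest to Lrfn4 at 0.0695, Prdx6 at 0.0751 and Slc6a9 at 0.0789. Vim was closest to lumican, Lum, a matrix proteoglycan of fibroblasts, at 0.0961, then to Arsk at 0.108 and Usp31 at 0.114. All profiles share the same 9 arrays and the same scaling.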

How the data were processed

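Total RNA of female rat bladders was measured on 9 arrays in 1 colour. The deposited values are spot intensities: per the file headers, Feature Extraction 11.0.1.1 made the processed signal (background-subtracted, spatially detrended, not normalized between arrays), while the submitters' processing notes name version 9.1. The deposited quality flags are 0 or 1. The sources used here do not say how the authors normalized between arrays.

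From 42877 non-control spots, log2 processed signal minus the 75th percentile of the array was taken. Spots flagged as non-uniform or population outlier were removed and the spots of a probe averaged. A probe had to be well above background on 3 or more of the 9 arrays, with at least 2 unflagged arrays in each group, and the brightest probe stood for its gene. Accessions were matched to RefSeq symbols (GRCr8), naming 18005 of 30367 probes. A single limma fit (limma 3.58.1 in R 4.3.3, with data.table at 1.17.8; 6 residual and 2.78 prior degrees of freedom) gave the 3 two-sided comparisons, adjusted by Benjamini-Hochberg over 11047 genes at 0.05. This step was tested on simulated data, and precision is limited by the few arrays.

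The text names every member, up to 4 genes of each of 16 other lists by smallest adjusted p, the fixed genes Pdgfrb, Acta2, Postn, Col1a1, Pecam1, Myh11, Upk2, Cd68 and Ptprc, and the 3 nearest profiles. Flna, Tagln, Des, Actg2 and Anxa2 were added after their values were seen. A list gene that the rule selects is not reported here. Members and lists were chosen with earlier results of these data known. Alternatives were flags kept, other scalings, normexp on the median signals, other probe filters, slide and replicate blocks, within-slide fits and leaving out each array.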

Additional observations from a re-analysis of the deposited data

How the results depend on the processing

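No member changed direction where it was called in any comparison: of 434 planned repeats of single member values, 392 kept direction and side of the threshold, 25 lost the call, 17 gained it and 0 reversed; of 65 added after seeing the data, 63 kept both and 2 gained the call. The normexp background correction lowered the calls over all genes to 3026 in pBOO against sham (4695 as reported), 3000 in tolterodine against pBOO (4563) and 961 in tolterodine against sham (2695). Within-slide fits, which use fewer arrays, gave 2854 calls in pBOO against sham (sham 1 alone, assumed to vary like the pBOO arrays) and 5850 in tolterodine against sham, where slide as a fixed block gave 4484 and as a random block 4276. The cause was not tested. Leaving out single arrays gave 3406 to 5143, 3396 to 5336 and 1413 to 3784 calls in the 3 comparisons, and 4 to 5, 3 to 5 and 3 to 6 called members; in the last, 3 members were left without tolterodine 2 or without sham 3, and gene calls fell to between 1413 and 1614 without tolterodine 1, tolterodine 2, sham 2 or sham 3. In tolterodine against sham the share of calls that were higher was 73.0% as reported, 49.9% with array median scaling (all-gene median -0.05, against 0.09) and 58.2% with quantile normalization, and in tolterodine against pBOO 62.9% as reported and 52.7% with quantile normalization. Pi16 in pBOO against sham also passed with quantile normalization (0.89), with the mean of both probes (0.78), with probes well above background on all arrays (0.73; adjusted p = 0.0398), with slide as a random block (1.15) and without sham 2 (0.95), Thy1 with slide as a fixed (-0.50) or random (-0.46) block, and Vim with quantile normalization (0.52) and with the arrays of that comparison alone (0.39; adjusted p = 0.0348). Deviations of same-numbered arrays correlated at -0.08 to 0.18, and those of arrays with different numbers at -0.18 to 0.16. With so few arrays these values cannot decide whether the replicate numbers in the titles pair the arrays. With the replicate number as a block, Cd34 in tolterodine against pBOO was the member call lost (-0.33; adjusted p = 0.0606), and 4349, 4225 and 2331 genes were called. Signal over background limits Cd34 and Fap, which were dim where they were low and whose differences from sham shrank by over 1.5 times with normexp. It also limits Thy1, which was dim in every group and lost its call in tolterodine against sham with normexp.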
